A study of Mus musculus with 46 samples.

Results

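The genes described here encode 10 enzymes of purine and pyrimidine nucleotide synthesis, namely Prps2, Ppat, Gart, Pfas, Paics, Atic, Impdh2, Cad, Dhodh and Umps. They were chosen by symbol, and all 10 stood among the 9857 gene symbols that every count table of the series lists once. Counts came from ribosome footprints and from poly(A) RNA of 23 cultures of EPP2 cells, a murine pancreatic cancer line. Cas9 is induced in these cells by doxycycline. The paper names a single cell-derived clone for its screen, and does not state whether all cultures used here derive from that clone. Ctu1 iKO cells carried guide RNAs against Ctu1, a subunit of the enzyme that adds sulfur to the wobble uridine of certain tRNAs. Per the labels, which carry 1 protocol for all libraries, controls included, doxycycline was given at 300 ng/ml for 4 days. The methods describe controls in general as cells with guides to non-coding regions or cells without doxycycline. Each genotype received DMSO or 300 nM torin 1, an inhibitor of the mTOR kinase, for 2 h. This gave 6 control cultures with DMSO, 6 control cultures with torin 1, 5 Ctu1 iKO cultures with DMSO and 6 Ctu1 iKO cultures with torin 1.

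Purine synthesis starts from phosphoribosyl pyrophosphate, which Prps2 and its relatives make, and runs through the enzymes Ppat, Gart, Pfas, Paics and Atic to inosine monophosphate, from which Impdh2 opens the branch to guanine nucleotides. Pyrimidine synthesis is begun by the multifunctional protein Cad, continued by Dhodh at the inner mitochondrial membrane and completed to uridine monophosphate by Umps. Proliferating cells draw on both routes for RNA and DNA, and mTORC1 is known to act on nucleotide synthesis through its kinase substrate S6K on Cad, through ATF4 and the one-carbon enzyme Mthfd2, and through MYC.

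Library totals ran from 4602092 to 52907878 counts for footprints and from 129881946 to 325494304 for RNA. Levels are given as counts per 1000000 of the library's total over the 9857 shared symbols (CPM). Ctu1 itself was listed in the DMSO tables alone, and its CPM are relative to the library's total over all entries. Its RNA level was 4.63 ± 0.346 CPM (SD, n = 6) in control and 4.04 ± 0.82 CPM (SD, n = 5) in Ctu1 iKO, and its footprints were 2.53 ± 0.649 CPM and 1.78 ± 0.415 CPM, with overlapping groups in both assays. In RNA replicates 1 to 3 Ctu1 was 4.75, 4.53 and 4.56 CPM in control and 4.56, 4.35 and 4.95 CPM in Ctu1 iKO, and the lower Ctu1 iKO mean rests on replicates 4 and 5, at 3.27 and 3.09 CPM. The mRNA level therefore does not check the labels. Of the 7 epithelial markers looked up, 4 were listed in all tables (Krt8, Krt18, Krt19, Sox9), as were 3 of 4 mesenchymal markers, with Vim at a median of 3029 footprint CPM, while Epcam was listed in the DMSO tables alone and Krt7 and Cdh1 in no table. The fibroblast markers Pdgfra and Pdgfrb, 2 of 3, were listed in all tables, and of the acinar, leukocyte and endothelial markers 0 of 3, 0 of 2 and 0 of 2 were. When RNA libraries were placed along the torin 1 effect of control replicates 1 and 2, 6 of them lay on the side of the other treatment, namely replicates 5 and 6 of both torin 1 groups and replicates 4 and 5 of Ctu1 iKO with DMSO. Replicates 1 to 3 all lay with their labels, and RNA results below come from those 12 libraries. For control replicates 1 and 2 the placement says nothing about the labels, since they define the scale. Control DMSO replicates 4 to 6 and replicate 4 of both torin 1 groups also lay with their labels. The footprints of control torin 1 replicates 3 to 6 lay between the treatments, at 0.03 to 0.06 on a scale on which control DMSO replicates 1 and 2 averaged near -0.50 and the torin 1 pair lay at 0.41 and 0.59. Values without either set of replicates are therefore given beside most footprint results.

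In control cells with DMSO, footprints per kilobase of coding sequence set the enzymes in an order that spanned a wide range. Paics, which carries out both the carboxylation and the succinylocarboxamide steps of purine synthesis, stood highest at 571 ± 35.9 CPM per kb (SD, n = 6). Impdh2 at 254 ± 30.1 and Gart, a trifunctional enzyme of early purine steps, at 237 ± 43.5 CPM per kb followed, and these neighbours did not differ beyond their spread. Cad at 126 ± 26.9 and Atic at 98.6 ± 13.2 CPM per kb overlapped in range, as did Umps at 73.6 ± 10.8 and Ppat at 68.4 ± 12. Dhodh at 25.7 ± 6.61, Pfas at 22.9 ± 5.76 and Prps2 at 16.3 ± 1.08 CPM per kb were lowest. Paics thus exceeded 96.7% of the 9592 genes that have a coding sequence in the annotation used, and Prps2 exceeded 48.4% of them. Ppat, the amidotransferase that commits phosphoribosyl pyrophosphate to purines, and Paics, which acts later in the same route, are neighbours in the genome and yet lay far apart in footprint level.

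**Figure D1:**
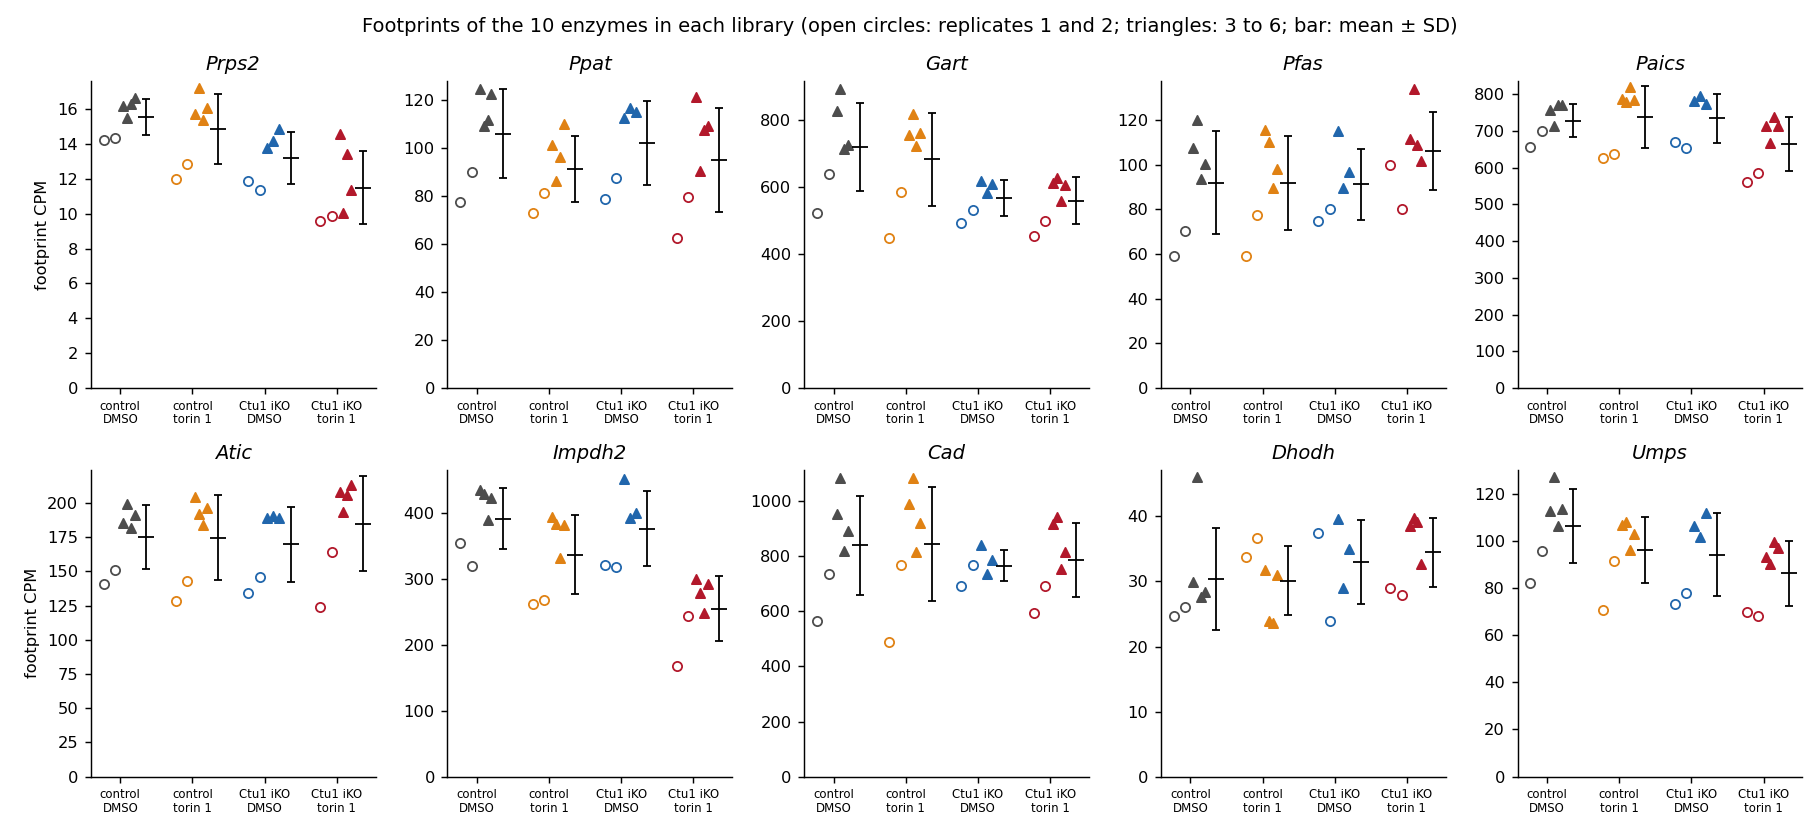
Footprint CPM (y axis, from 0, a separate scale for each gene) of each enzyme in every library of the 4 groups (x axis). Open circles are replicates 1 and 2, triangles replicates 3 to 6, and bars the mean ± SD of all libraries of a group. Open circles lie below most triangles in nearly all panels, and Impdh2 is lowest in Ctu1 iKO cells with torin 1, where all 6 libraries are between 167 and 300 CPM.

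The first comparison asked what 2 h of torin 1 did to these enzymes in each genotype. In Ctu1 iKO cells, Impdh2 footprints fell, and in the same cells Impdh2 and Paics RNA rose. In control cells, Paics RNA rose and Ppat RNA fell, while footprint differences of Impdh2, Ppat and Umps passed only in fits with a term for the replicates or in a subset of them. For the remaining enzymes no difference passed in either assay in the same fits (TMM scaling, all libraries used, no term for replicates), and fits that differ are given below.

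Impdh2, the rate-limiting dehydrogenase of guanine nucleotide synthesis, lies on chromosome 9 from 108560286 to 108565584 on the plus strand of GRCm38. In Ctu1 iKO cells its footprints were 321, 318, 451, 392 and 399 CPM with DMSO and had a lowest, median and highest value of 167, 263 and 300.0 CPM with torin 1. All torin 1 libraries lay below all DMSO libraries. The log2 difference was -0.65 ± 0.14 (SE, 0.636-fold, edgeR adjusted p = 0.00247, 95% interval -0.94 to -0.36), and it was called without any one of the 23 libraries. Among all genes, 12% of 9857 were called in this comparison, and Impdh2 was 1 of the 10 enzymes called. In replicates 1 and 2 alone the difference was -0.72 ± 0.18 (edgeR adjusted p = 0.0967) and in replicates 3 to 6 alone it was -0.66 ± 0.09 (edgeR adjusted p = 0.000113). In control cells the lowest, median and highest Impdh2 footprints were 319, 407 and 434 CPM with DMSO and 262, 357 and 394 CPM with torin 1, which overlap. The control difference of -0.30 ± 0.14 did not pass (edgeR adjusted p = 0.211), and was -0.44 ± 0.18 in replicates 1 and 2 and -0.25 ± 0.09 in replicates 3 to 6. With a term for these 2 sets of replicates it passed, at -0.32 ± 0.08 (edgeR adjusted p = 0.01), and with the replicate number as a block at -0.32 ± 0.07 (edgeR adjusted p = 0.00343). The torin 1 effect in Ctu1 iKO minus that in control was -0.35 ± 0.20, with a 95% interval of -0.75 to 0.06 and an edgeR adjusted p of 1, so a difference between genotypes was not shown. With the term for the replicate sets that value was -0.36 ± 0.12, with a 95% interval of -0.60 to -0.12, and did not pass (edgeR adjusted p = 0.241).

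Impdh2 RNA moved the other way. In Ctu1 iKO cells it was 289, 312 and 319 CPM with DMSO and 332, 338 and 360 CPM with torin 1, and the groups did not overlap. This rise of 0.23 ± 0.07 on the log2 scale passed (edgeR adjusted p = 0.0405), against 17.9% of 9616 genes called in that comparison. It passed when 3 of the 12 libraries were left out in turn and not when any of the other 9 was, with edgeR adjusted p from 0.0502 to 0.157 in those 9. With library totals in place of TMM scaling factors it was 0.16 ± 0.06 and did not pass (edgeR adjusted p = 0.0952). It was 0.16 ± 0.08 with RNA of all replicates and 0.12 ± 0.09 in replicates 3 to 6 alone, and neither passed (edgeR adjusted p = 0.807 and 0.903). In control cells Impdh2 RNA was 312, 325 and 334 CPM with DMSO and 344, 356 and 362 CPM with torin 1. That difference of 0.16 ± 0.07 did not pass (edgeR adjusted p = 0.18) but did with the replicate number as a block (0.16 ± 0.04, edgeR adjusted p = 0.0131).

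Paics lies on chromosome 5 from 76951307 to 76967509 on the plus strand, and Ppat from 76913249 to 76951578 on the minus strand, so that the pair is transcribed in opposite directions and shares 272 annotated exon bases. The RNA kit keeps strand, but whether the counting used it is not given in the sources used here, so reads in those 272 bases, 8.67% of the exon bases of Paics and 6.15% of those of Ppat, could be assigned to either gene. Paics RNA in control cells was 650, 624 and 589 CPM with DMSO and 722, 723 and 694 CPM with torin 1. No library of one treatment reached the other. It rose by 0.23 ± 0.06 on the log2 scale (edgeR adjusted p = 0.0192), where 11.8% of 9616 genes were called and 2 of the 10 enzymes. In Ctu1 iKO cells Paics RNA was 646, 644 and 608 CPM with DMSO and 758, 726 and 756 CPM with torin 1, a rise of 0.31 ± 0.06 (edgeR adjusted p = 0.00282) that passed without any one of the 12 libraries. In control cells the call was lost without control DMSO replicate 2 or 3 or control torin 1 replicate 2 (edgeR adjusted p 0.0615 to 0.079). When RNA of all replicates was used, Paics differed by 0.20 in control and 0.16 in Ctu1 iKO cells and neither passed (edgeR adjusted p = 0.0817 and 0.807).

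Ppat RNA went down where Paics RNA went up. In control cells it was 88.2, 92.7 and 104 CPM with DMSO and 59.0, 74.6 and 73.8 CPM with torin 1, without overlap. The difference was -0.43 ± 0.12 (edgeR adjusted p = 0.0445), and it was called in 2 of 12 fits that each left out 1 library (edgeR adjusted p 0.0552 to 0.177 in the other 10). With the replicate number as a block it was -0.43 ± 0.06 (edgeR adjusted p = 0.000307). In Ctu1 iKO cells Ppat RNA was 79.6, 84.2 and 85.7 CPM with DMSO and 53.5, 62.5 and 70.1 CPM with torin 1. There the difference of -0.35 ± 0.12 missed the threshold (edgeR adjusted p = 0.0731) and passed with the block, at -0.36 ± 0.06 (edgeR adjusted p = 0.000798), with library totals, at -0.42 ± 0.12 (edgeR adjusted p = 0.0239), and by DESeq2, at -0.35 ± 0.13 (DESeq2 adjusted p = 0.0397). With RNA of all replicates it was -0.13 ± 0.11, and in replicates 3 to 6 alone, which hold the libraries that lay against their labels, 0.02 ± 0.11, and neither passed (edgeR adjusted p = 0.862 and 0.983). The control difference was -0.34 ± 0.11 with all replicates and also did not pass (edgeR adjusted p = 0.086). Ppat footprints differed by -0.30 ± 0.15 in control and -0.19 ± 0.15 in Ctu1 iKO cells, and neither passed (edgeR adjusted p = 0.27 and 0.478). The control difference was -0.21 ± 0.19 in replicates 1 and 2 (edgeR adjusted p = 0.852) and -0.33 ± 0.09 in replicates 3 to 6, where it passed (edgeR adjusted p = 0.0303). It also passed with the replicate sets as a term (-0.30 ± 0.08, edgeR adjusted p = 0.0171) and with the block (-0.30 ± 0.06, edgeR adjusted p = 0.00295).

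Promoter windows were searched on both strands for the E-box CACGTG, the palindrome bound by MYC and related factors, and for TGATG followed by any base and AA, the core of sites bound by ATF4 with its partners. RefSeq windows of GRCm38.p6, which reach from 250 bases before to 50 after the RefSeq start, were matched for 8 of the enzymes (not Dhodh and Pfas). An E-box stood in 3 of the 8, those of Paics, Atic and Impdh2, against 10.4% of 10131 windows of genes in the count tables and 7.15% of all 32851 windows. These 3 stretches are shown because Paics and Impdh2 are the enzymes whose RNA rose, with the E-box in capitals and each read 5′ to 3′ on the strand of its gene:
Paics, chr5:76951087-76951116, plus strand, E-box beginning 203 bases before the start: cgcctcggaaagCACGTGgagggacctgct
Impdh2, chr9:108560314-108560343, plus strand, E-box beginning 110 bases before the start: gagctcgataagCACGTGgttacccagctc
Atic, chr1:71557137-71557155, plus strand, E-box beginning 7 bases before the start: ggacctcggggtCACGTGg
Atic, which has the same motif close to its start, showed RNA differences of -0.03 ± 0.12 in control and 0.08 ± 0.12 in Ctu1 iKO cells, and neither passed. The ATF4 core was in 0 of the 8 windows, and stands in 2.17% of windows of genes in the count tables. Distances are from the RefSeq start, and the Impdh2 stretch lies before that start but inside the GENCODE bounds of the gene given above, which open at 108560286. A match names letters in a window and not a bound site.

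For the other enzymes, torin 1 left footprint differences that did not pass in either genotype in the fit without a term for replicates. In control cells edgeR called 0 of the 10 enzymes, against 6.91% of all 9857 genes, with 1 (Impdh2) at an unadjusted p under 0.05. DESeq2 also called 0 of the enzymes, where it called 402 of all genes higher and 506 lower. All 10 differences lay below 0, from -0.30 to -0.07 with a median of -0.13, where the median of all genes was 0.02. That shared sign did not hold in every fit, since with library totals Cad was at 0.01 and Paics at 0.02, and in replicates 1 and 2 alone Dhodh was at 0.38. With the replicate sets as a term 2 were called, Ppat and Impdh2, where 11.5% of all genes were, and in replicates 3 to 6 alone 1, Ppat, where 7.94% were. Same-numbered control libraries deviated together (6 of 6 correlations, 0.38 to 0.61), and with the replicate number as a block 3 were called, Impdh2, Ppat and Umps, where 13.9% of all genes were. In Ctu1 iKO cells the differences ran from -0.65 to 0.12 with a median of -0.15, and 8 lay below 0. Paics footprints there had values of 671, 654, 781, 795 and 773 CPM with DMSO and a lowest, median and highest of 562, 691 and 739 CPM with torin 1, a difference of -0.24 ± 0.09 that did not pass (edgeR adjusted p = 0.0901). In replicates 3 to 6 alone it was -0.24 ± 0.06 and passed (edgeR adjusted p = 0.0164), and in replicates 1 and 2 it was -0.29 ± 0.11 and did not (edgeR adjusted p = 0.249). With the replicate sets as a term it passed, at -0.25 ± 0.05 (edgeR adjusted p = 0.000846), as did Prps2, at -0.31 ± 0.10 (edgeR adjusted p = 0.033). Calls over all genes were 18.3% with that term and 11.5% in replicates 3 to 6.

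Of the pyrimidine enzymes, Umps passed with torin 1 in some fits and Cad and Dhodh footprints in none of those given here. Cad footprints had a lowest, median and highest value of 565, 856 and 1083 CPM in control cells with DMSO and of 489, 868 and 1085 CPM with torin 1, so the groups covered the same range. Its footprint difference was -0.08 ± 0.16 in control (95% interval -0.42 to 0.26) and -0.05 ± 0.17 in Ctu1 iKO cells (95% interval -0.41 to 0.30). Dhodh, the gene of the mitochondrial step, differed by -0.12 ± 0.16 in control and -0.02 ± 0.17 in Ctu1 iKO cells. The control value joins opposite signs, 0.38 ± 0.24 in replicates 1 and 2 and -0.35 ± 0.18 in replicates 3 to 6, neither of which passed (edgeR adjusted p = 0.753 and 0.267). Umps footprints differed by -0.23 ± 0.14 in control and -0.22 ± 0.14 in Ctu1 iKO cells, and its RNA by -0.28 ± 0.12 and -0.32 ± 0.12, none of which passed (edgeR adjusted p = 0.376, 0.367, 0.173 and 0.0965). With the replicate sets as a term, Umps footprints were at -0.24 ± 0.08 in both genotypes, which passed in Ctu1 iKO (edgeR adjusted p = 0.0432) and not in control (edgeR adjusted p = 0.0501). With the block the control difference passed (-0.24 ± 0.07, edgeR adjusted p = 0.0347). With the replicate number as a block both RNA differences of Umps passed, at -0.28 ± 0.06 (edgeR adjusted p = 0.00254) and -0.33 ± 0.06 (edgeR adjusted p = 0.000745). The block also added Pfas RNA in control (-0.20 ± 0.06, edgeR adjusted p = 0.0293) and Dhodh RNA in Ctu1 iKO cells (-0.20 ± 0.07, edgeR adjusted p = 0.0368), so that 5 of 10 enzymes were called in each genotype where 2 were called in the fit without it. The block also raised the calls over all genes, to 32.3% in control and 41.0% in Ctu1 iKO cells. Umps RNA in Ctu1 iKO cells also passed with library totals (-0.39 ± 0.11, edgeR adjusted p = 0.0327), in replicates 1 and 2 alone (-0.38 ± 0.11, edgeR adjusted p = 0.0482) and without Ctu1 iKO torin 1 replicate 3 (-0.44, edgeR adjusted p = 0.0231). Over all genes 20.2% were called with library totals, 21.4% in replicates 1 and 2 and 23.9% by DESeq2 in that comparison.

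**Figure D2:**
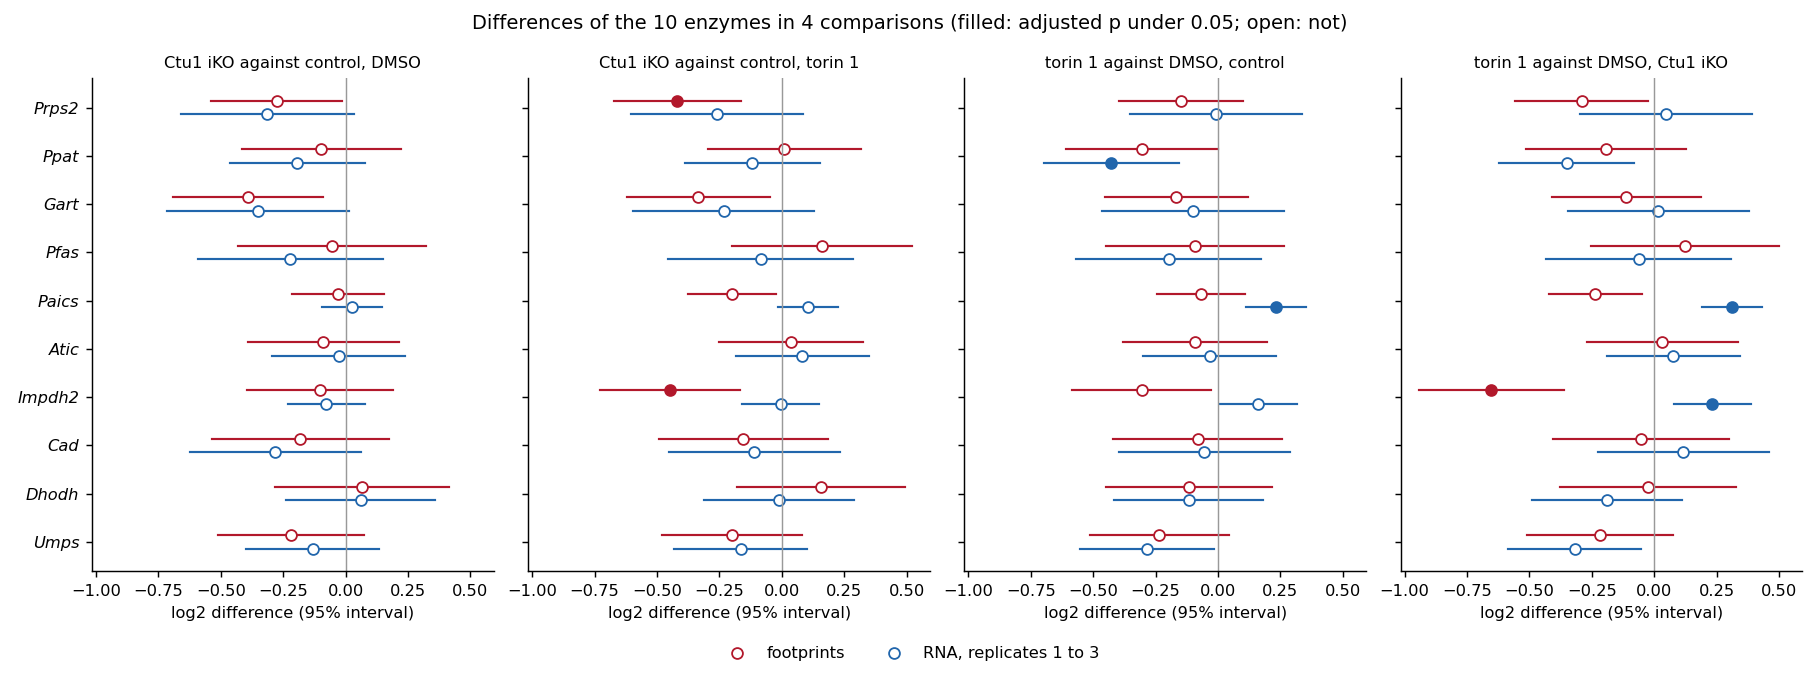
Log2 differences with 95% intervals (x axis) of the 10 enzymes (y axis) in footprints of all replicates (red) and RNA of replicates 1 to 3 (blue), for the 4 comparisons. Filled points passed the edgeR test at an adjusted p under 0.05. With torin 1 the Impdh2 and Paics points of the 2 assays lie on opposite sides of 0 in both genotypes, and Ppat lies below 0 in both assays.

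The second comparison asked how loss of Ctu1 affected the enzymes under each treatment. With torin 1, Impdh2 and Prps2 footprints were lower in Ctu1 iKO than in control cells. With DMSO no enzyme passed, and the difference farthest below 0 was that of Gart. RNA of the 10 enzymes held no call under either treatment in the fit of replicates 1 to 3 without a term for the replicates.

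With torin 1, the lowest, median and highest Impdh2 footprints of control cells (262, 357 and 394 CPM) overlapped those of Ctu1 iKO cells (167, 263 and 300.0 CPM) through replicates 1 and 2 of the control alone. In replicates 3 to 6 the control ran from 332 to 394 CPM and Ctu1 iKO from 248 to 300.0 CPM. The log2 difference was -0.45 ± 0.14 (0.733-fold, edgeR adjusted p = 0.0395). Prps2, a phosphoribosyl pyrophosphate synthetase on chromosome X from 167346322 to 167382749, had a lowest, median and highest footprint level of 12, 15.6 and 17.2 CPM in control and 9.6, 10.7 and 14.6 CPM in Ctu1 iKO cells, again with overlap. It differed by -0.42 ± 0.12 (0.748-fold, edgeR adjusted p = 0.0352). These were 2 of 10 enzymes, where 8.54% of all genes were called. Neither passed with library totals in place of TMM (edgeR adjusted p = 0.0647 for Impdh2 and 0.0669 for Prps2). Both calls were sensitive to single libraries, since Impdh2 lost its call without any one of control torin 1 replicates 3, 4, 5 and 6 or Ctu1 iKO torin 1 replicates 1, 2 and 5 (edgeR adjusted p 0.0568 to 0.092), and Prps2 without any one of control torin 1 replicates 3, 4, 5 and 6 or Ctu1 iKO torin 1 replicates 1, 2, 4 and 6 (edgeR adjusted p 0.0589 to 0.0814). In replicates 1 and 2 alone the differences were -0.39 ± 0.18 for Impdh2 and -0.38 ± 0.27 for Prps2 and did not pass. In replicates 3 to 6 alone they were -0.47 ± 0.09 and -0.45 ± 0.12 and passed (edgeR adjusted p = 0.00238 and 0.028). Same-numbered torin 1 libraries of the 2 genotypes deviated together (6 of 6 correlations, 0.27 to 0.51), and with the block Impdh2, Prps2, Gart and Paics passed (edgeR adjusted p = 0.000132, 0.00848, 0.00559 and 0.00618). These same 4 passed with the replicate sets as a term and in replicates 3 to 6. The calls over all genes were then 17.4% with the block, 14.5% with the term and 9.39% in replicates 3 to 6.

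Gart lies on chromosome 16 from 91621186 to 91646952 on the minus strand, and 19.7% of its exon bases overlap those of an antisense transcript. Its footprints in DMSO were 492.5, 529, 618, 581 and 608 CPM in Ctu1 iKO cells, and the lowest, median and highest of the control were 521, 717 and 893 CPM. All Ctu1 iKO values lay below the control median. Over all replicates the difference was -0.39 ± 0.15 and did not pass (edgeR adjusted p = 0.166), where 2.76% of all genes and 0 of the 10 enzymes were called, and 2 enzymes (Gart and Prps2) had an unadjusted p under 0.05. DESeq2 also called 0 of the enzymes, where it called 285 of all genes higher and 218 lower. With the replicate sets as a term the Gart difference was -0.35 ± 0.09 and passed (edgeR adjusted p = 0.0241). In replicates 3 to 6 it was -0.44 ± 0.10 (edgeR adjusted p = 0.0215) and in replicates 1 and 2 it was -0.22 ± 0.18 (edgeR adjusted p = 0.914). Calls over all genes were 7.18% with the term and 4.56% in replicates 3 to 6. With torin 1 the Gart difference was -0.34 ± 0.14 (edgeR adjusted p = 0.146), and with the term -0.32 ± 0.09 (edgeR adjusted p = 0.0178). Leaving out control torin 1 replicate 1, the lowest control library at 447 CPM, also made it pass, at -0.44 (edgeR adjusted p = 0.0274).

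Gart RNA was 384, 437 and 532 CPM in control and 312, 380 and 372 CPM in Ctu1 iKO cells with DMSO. The groups did not overlap, though the lowest control library lay close to the highest of Ctu1 iKO. It differed by -0.35 ± 0.17 with DMSO and by -0.23 ± 0.17 with torin 1, and neither passed (edgeR adjusted p = 0.241 and 0.406). Over all enzymes 0 of 10 RNA differences passed in either treatment, against 6.28% of 9616 genes with DMSO and 10.1% with torin 1, and 0 of 10 had an unadjusted p under 0.05 or were called by DESeq2. Of all genes, DESeq2 called 695 higher and 582 lower with DMSO, and 886 and 804 with torin 1. With the replicate number as a block, which the RNA libraries of replicates 1 to 3 followed, 5 passed with DMSO, all lower in Ctu1 iKO, where 29.2% of all genes did. These were Gart (-0.34 ± 0.06, edgeR adjusted p = 0.00188), Prps2 (-0.31 ± 0.08, edgeR adjusted p = 0.0164), Pfas (-0.22 ± 0.06, edgeR adjusted p = 0.0229), Cad (-0.26 ± 0.08, edgeR adjusted p = 0.024) and Ppat (-0.19 ± 0.06, edgeR adjusted p = 0.0412). Without the block, other fits called Prps2 with the replicate sets as a term (DMSO -0.31 ± 0.09, edgeR adjusted p = 0.0299, and torin 1 -0.28 ± 0.09, edgeR adjusted p = 0.0379) and in replicates 1 and 2 with torin 1 (edgeR adjusted p = 0.0222). The calls over all genes were 20.4%, 28% and 16.4% in these 3 cases. With DMSO, Ppat was called with RNA of all replicates (edgeR adjusted p = 0.0383), and Ppat, Gart and Pfas in replicates 3 to 6 (edgeR adjusted p 0.0272 to 0.0297), with 15.8% and 16.5% of all genes. With torin 1 the block gave Gart (-0.24 ± 0.06, edgeR adjusted p = 0.0106), Prps2 (-0.28 ± 0.08, edgeR adjusted p = 0.023) and Umps (-0.17 ± 0.06, edgeR adjusted p = 0.0328), 3 of 10 where 35.9% of all genes were called.

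The footprint differences between genotypes had a median of -0.10 over the 10 enzymes with DMSO and -0.18 with torin 1, beside 0.00 and 0.01 over all genes, and 9 and 6 of them lay below 0. Paics and Atic were close to 0 with DMSO, at -0.03 ± 0.09 (95% interval -0.22 to 0.15) and -0.09 ± 0.15. With torin 1 the Paics difference was -0.20 ± 0.09 and did not pass (edgeR adjusted p = 0.163), but it did with the replicate sets as a term (-0.20 ± 0.05, edgeR adjusted p = 0.0075) and in replicates 3 to 6 alone (-0.22 ± 0.06, edgeR adjusted p = 0.0207), and not in replicates 1 and 2 (-0.16 ± 0.11, edgeR adjusted p = 0.547). Pfas, the amidotransferase between Gart and Paics, and Dhodh were the enzymes with differences above 0.1 with torin 1, at 0.16 ± 0.17 and 0.16 ± 0.16, and neither passed (edgeR adjusted p = 0.658 and 0.644). The Dhodh difference turned between the replicate sets, from -0.34 ± 0.25 in replicates 1 and 2 to 0.39 ± 0.18 in replicates 3 to 6, and neither passed (edgeR adjusted p = 0.586 and 0.193). Cad differed by -0.18 ± 0.17 and -0.15 ± 0.16, and within replicates 1 and 2 and replicates 3 to 6 with DMSO by 0.14 ± 0.23 and -0.30 ± 0.13.

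Translational efficiency, the footprint difference relative to the RNA difference of the same cultures, was tested in replicates 1 to 3 as the interaction of assay and group. With torin 1 in Ctu1 iKO cells, it fell for Paics, and the Impdh2 difference was larger but just missed the threshold. The log2 ratio of footprint CPM to RNA CPM of Paics was 0.06, 0.02 and 0.36 with DMSO and -0.43, -0.30 and -0.08 with torin 1. No torin 1 culture reached a DMSO culture, and the difference was -0.57 ± 0.14 (edgeR adjusted p = 0.0282). It was 1 of 10 enzymes, where 2.51% of 9851 genes were called, and it lost its call in 6 of the 12 fits that left out a culture (without control DMSO replicate 2, any Ctu1 iKO DMSO replicate, or Ctu1 iKO torin 1 replicate 1 or 2, edgeR adjusted p 0.0573 to 0.164). It also lost it with library totals (-0.41 ± 0.15, edgeR adjusted p = 0.151) and in a fit of the 2 groups alone (-0.58, edgeR adjusted p = 0.113). Impdh2 ratios were 0.15, 0.03 and 0.50 with DMSO and -0.99, -0.47 and -0.26 with torin 1. The 3 torin 1 cultures again lay below the 3 DMSO cultures. That difference was -0.94 ± 0.25 (edgeR adjusted p = 0.0531), and it passed with the replicate number as a block, at -0.94 ± 0.13 (edgeR adjusted p = 6.61e-05), where 6.21% of genes were called. Without control torin 1 replicate 3 or Ctu1 iKO torin 1 replicate 3 it also passed (edgeR adjusted p = 0.0278 and 0.0282).

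In control cells the ratio of Paics was 0.02, 0.16 and 0.36 with DMSO and -0.20, -0.18 and 0.18 with torin 1, and that of Impdh2 was 0.19, -0.03 and 0.38 against -0.39, -0.41 and 0.12. In both genes the treatments overlapped through replicate 3, which had the highest ratio of its group. The differences of -0.37 ± 0.14 for Paics and -0.52 ± 0.25 for Impdh2 did not pass (edgeR adjusted p = 0.632 and 1). By edgeR 1.18% of all genes were called and 0 of the enzymes, with 1 (Paics) at an unadjusted p under 0.05. DESeq2 also called 0 of the enzymes, where it called 15 of all genes higher and 146 lower. With the block the Paics and Impdh2 differences passed, at -0.38 ± 0.08 (edgeR adjusted p = 0.00741) and -0.54 ± 0.13 (edgeR adjusted p = 0.0304), where 2.02% of genes were called. Ppat, whose RNA fell, had efficiency differences of 0.14 ± 0.29 and 0.18 ± 0.29 in the 2 genotypes, with 95% intervals that reach from -0.47 to 0.74 and from -0.42 to 0.79.

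**Figure D3:**
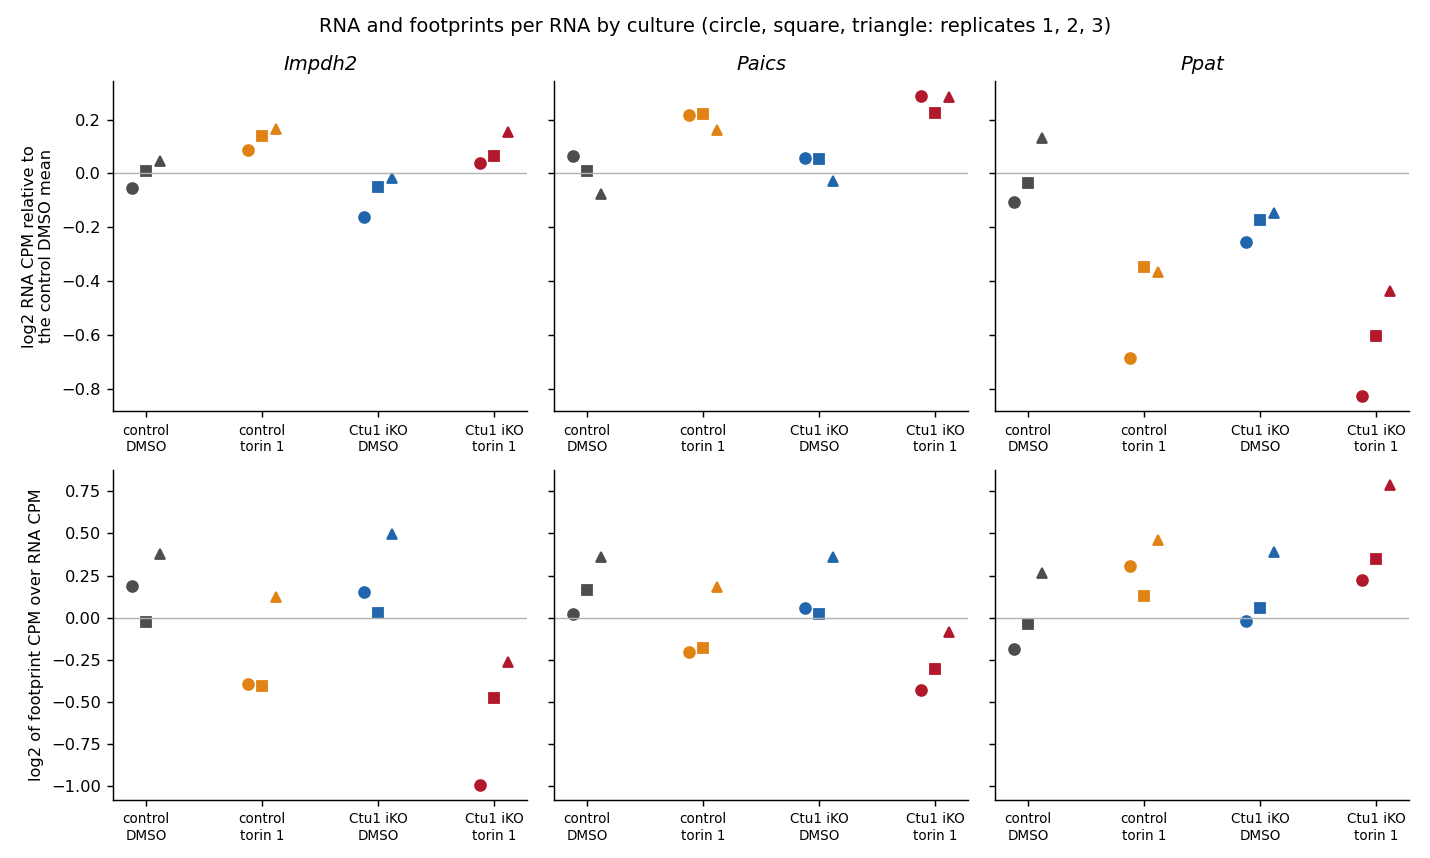
Upper row, log2 RNA CPM of Impdh2, Paics and Ppat relative to the control DMSO mean, and lower row, log2 of footprint CPM over RNA CPM (y axes), for replicates 1 to 3 (circle, square, triangle) of the 4 groups (x axis). With torin 1, RNA of Impdh2 and Paics is higher and that of Ppat lower than with DMSO in each genotype. The ratios of Impdh2 and Paics are lowest in Ctu1 iKO cells with torin 1, down to -0.99 for Impdh2.

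Between genotypes no efficiency difference of the 10 enzymes passed. With DMSO they ran from -0.09 to 0.36 with a median of 0.02, and 0.0102% of genes were called. With torin 1 they ran from -0.41 to 0.26, with Impdh2 lowest (-0.41 ± 0.25, edgeR adjusted p = 0.927), and 0.67% of genes were called. For both treatments 0 of the 10 had an unadjusted p under 0.05 or were called by DESeq2. Of all genes, DESeq2 called 3 higher and 5 lower with DMSO, and 29 and 123 with torin 1. The question whether torin 1 acted differently in the 2 genotypes was tested as an interaction. In the fits with TMM scaling, all libraries used and no term for replicates, 0 of 10 enzymes passed in footprints, RNA or efficiency. In each of these 0 had an unadjusted p under 0.05 by edgeR, and DESeq2 called 0. Of all genes, 0.639% were called in footprints, 0.0% in RNA and 0.0203% in efficiency. For RNA that is 0 genes by edgeR, with 140 at an unadjusted p under 0.05, and 3 by DESeq2. In footprints DESeq2 called 3 of all genes higher and 106 lower, and in efficiency 1 and 36. The footprint interactions of the enzymes ran from -0.35 for Impdh2 to 0.22 for Pfas, and the interval of each included 0.

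The enzymes had in common a higher footprint level in replicates 3 to 6 than in replicates 1 and 2. Averaged over the 4 groups, the log2 difference was 0.51 for Pfas, 0.47 for Ppat, 0.46 for Atic and 0.42 for both Cad and Umps, and it was lowest for Dhodh at 0.14. In 9 of the 10 it lay above 0 in all 4 groups, and Dhodh was above 0 in 3. The median over the 10 was 0.42, where the median of all genes was 0.02, with a middle 50% from -0.20 to 0.25, and 25.4% of all genes were above 0 in all 4 groups. These shifts are as large as most differences between the groups, and the labels give no date or batch for the replicate numbers. What the 2 sets differ in was not tested.

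**Figure D4:**
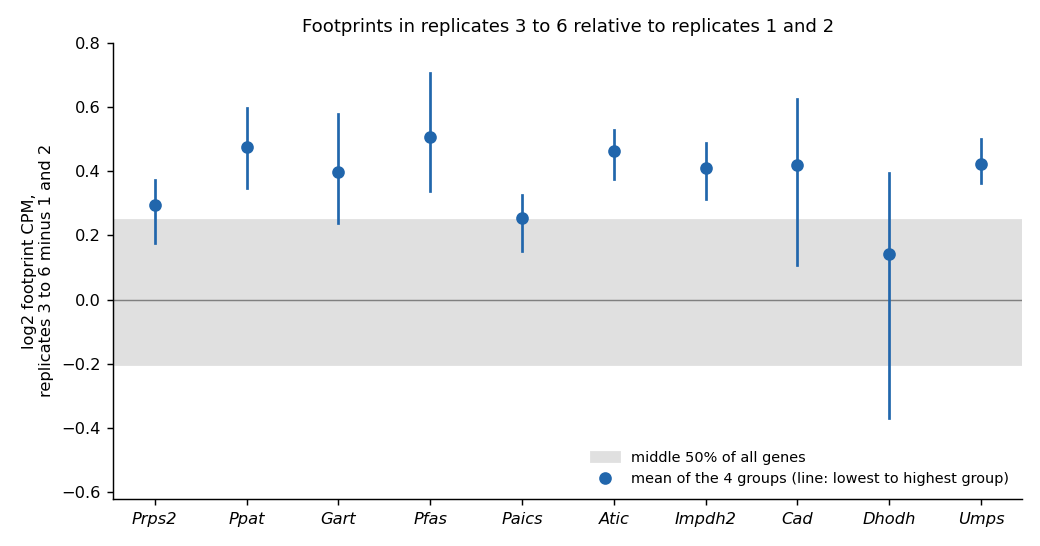
Log2 footprint CPM of replicates 3 to 6 minus that of replicates 1 and 2 (y axis) for each enzyme (x axis), as the mean of the 4 groups (point) and its lowest and highest group (line). The grey band is the middle 50% of all 9857 genes. Of the enzymes, 9 have lines wholly above 0, with means from 0.26 for Paics to 0.51 for Pfas.

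Codons AAA, CAA and GAA are read by tRNAs whose wobble uridine carries the modification that Ctu1 helps to make, and the enzymes differed widely in their share of them. Paics, Ppat and Dhodh mark the range, and the 20 codons of each coding sequence that hold the most of them within 1 exon (GENCODE M21, GRCm38) are shown with these codons in capitals, read 5′ to 3′ on the strand of the gene:
Ppat, codons 470 to 489, chr5:76915296-76915355, minus strand: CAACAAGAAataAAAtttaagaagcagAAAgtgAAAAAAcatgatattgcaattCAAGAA
Paics, codons 159 to 178, chr5:76961191-76961250, plus strand: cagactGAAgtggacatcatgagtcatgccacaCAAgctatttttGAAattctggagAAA
Dhodh, codons 79 to 98, chr8:109603443-109603502, minus strand: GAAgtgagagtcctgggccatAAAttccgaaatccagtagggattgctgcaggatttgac
Of the 20 codons shown, 9 were AAA, CAA or GAA in Ppat, 4 in Paics and 2 in Dhodh. Over the whole coding sequence they made up 10.1% of the codons of Ppat, 7.77% of Paics, 6.93% of Gart, 6.29% of Prps2 and 6.03% of Impdh2, and 3.46% of Cad, 3.44% of Pfas and 2.28% of Dhodh. The median of the 10 was 5.82%, beside 6.13% over 9592 genes. AAA alone was 4.0% in Paics and 3.87% in Ppat, above 84.3% and 82.7% of genes, and 0.506% in Dhodh. Beside these shares, the footprint differences between Ctu1 iKO and control with DMSO were -0.10 ± 0.15 for Ppat, -0.03 ± 0.09 for Paics and 0.07 ± 0.17 for Dhodh, and no order was read from 10 genes.

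Around the enzymes, 50 other genes of nucleotide synthesis, salvage, one-carbon supply and their regulation were tested. In footprints with torin 1, 0 rose and 6 fell in control and 0 rose and 10 fell in Ctu1 iKO cells, which is 12% and 20% of the 50 beside 6.91% and 12% of all genes. Among the 10 called in Ctu1 iKO cells, the 4 largest falls were those of the adenylate kinase Ak4 (-1.08 ± 0.16), the nucleoside diphosphate kinase Nme2 (-0.995 ± 0.07), Mthfd2 (-0.69 ± 0.11), which supplies one-carbon units in mitochondria, and the CTP synthase Ctps (-0.67 ± 0.19). Nme2 footprints also fell in control cells (-0.49 ± 0.07), and its torin 1 effect differed between genotypes, by -0.51 ± 0.10 (edgeR adjusted p = 0.00966). It was the 1 gene of the 50 that passed the interaction test, which is 2% beside 0.639% of all genes. Among the 6 called in control cells, the 4 largest falls were Ak4 (-0.78 ± 0.15), Mthfd2 (-0.52 ± 0.10), Atf4 (-0.51 ± 0.11) and Nme2. In RNA, 0 rose and 3 fell in control (Ak4 at -1.01 ± 0.07, Atf4 at -0.67 ± 0.07 and Mlxip at -0.43 ± 0.10), and 0 rose and 7 fell in Ctu1 iKO cells, which is 6% and 14% of the 50 beside 11.8% and 17.9% of all genes. Efficiency fell with torin 1 for Nme2 in control (-0.55 ± 0.13) and for Nme2 (-1.14 ± 0.13) and the mitochondrial one-carbon enzyme Mthfd1l (-0.90 ± 0.24) in Ctu1 iKO cells. That is 2% and 4% of the 50 beside 1.18% and 2.51% of all genes.

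Between genotypes, the regulator Atf4, a transcription factor of amino acid stress, had footprints of 79.0 to 105 CPM in control and 168 to 215 CPM in Ctu1 iKO cells with DMSO, without overlap, a rise of 0.99 ± 0.11 (edgeR adjusted p = 1.19e-05). Its target in folate metabolism Aldh1l2 rose by 1.14 ± 0.22 (edgeR adjusted p = 0.00442). These were the only 2 of the 50 called in footprints with DMSO, which is 4% beside 2.76% of all genes. With torin 1, 2 rose (Aldh1l2 by 1.30 ± 0.21 and Atf4 by 0.83 ± 0.11) and 4 fell, among them Ak4 (-0.48 ± 0.15) and the ribonucleotide reductase subunit Rrm2 (-0.45 ± 0.12). That is 12% of the 50 beside 8.54% of all genes. RNA gave 2 higher and 2 lower with DMSO and 3 higher and 4 lower with torin 1, which is 8% and 14% of the 50 beside 6.28% and 10.1% of all genes. Efficiency between genotypes was lower for Nme2 with torin 1 (-0.65 ± 0.13), the 1 call of the 50, which is 2% beside 0.67% of all genes. Nme1 and Nme2 are close neighbours in sequence, and reads shared by them could have been split or dropped in counting.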

How the data were processed

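Per-gene counts were made and deposited by the authors as raw counts with no normalization. Footprint reads had been trimmed, stripped of molecular identifiers and aligned with STAR, and RNA came from stranded paired-end poly(A) libraries. The labels name mm10, the methods a human genome for footprints, and the symbols are those of mouse. All RNA counts were even. Every gene listed reached at least 100 footprint counts in some library, so lower genes were not tested here. The 9857 symbols with 1 entry in all tables were used, with genes at a mean of at least 10 counts. edgeR 4.0.16 in R 4.3.3 (TMM, quasi-likelihood, 4 groups in 1 fit, 95% intervals from its standard errors, Benjamini-Hochberg over all genes) was used, and adjusted p under 0.05 was called. The fits were tested on simulated data. Alternatives were DESeq2 1.42.0, other scalings, filters, replicate sets, terms for replicates and single libraries left out. Same-numbered libraries deviated together in RNA replicates 1 to 3 (18 of 18 correlations over 0.1, lowest 0.37) and in footprints of replicates 1 to 3 (lowest 0.17), but not in all footprints (30 of 33, lowest -0.10). The 3 exceptions all involve Ctu1 iKO DMSO replicate 4. The block is therefore given beside RNA and efficiency results and beside the footprint comparisons without that group. For footprint comparisons with that group, block results stand only in the section on processing. The methods speak of 2 independent experiments done on successive days, and the ribosome profiling legends of 5 or 6. Which replicate numbers belong to which day is not given in the sources used here, and p-values measure only the spread between these libraries. Members and gene lists were chosen with earlier results of these data known. All 10 members and at most 4 of the other genes, those with the largest called change, were named in a comparison. Codons were counted in 1 coding sequence for each of 9592 genes (97.3%).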

Additional observations from a re-analysis of the deposited data

Results flagged for a closer look

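Of 80 groups of libraries (10 enzymes, 4 groups, 2 assays), 2 held a library whose gap to its nearest neighbour was large for the range of its group, which is 2.5% where chance gives about 5%. Dhodh footprints in control DMSO replicate 4 were 46.0 CPM, where the next of the 6 libraries was 29.9 CPM. Gart RNA in control torin 1 replicate 1 was 350 CPM, where the next lowest of the 6 was 436 CPM, and Gart footprints of that culture were the lowest of their group as well, at 447 CPM.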

How the results depend on the processing

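Each alternative was set against the value reported. Of 4070 such pairs, 276 changed sign, in each of them with neither value passing, and 8 of the alternative values lay outside the 95% interval of the value reported. The counts below are of the 10 enzymes called, and the set term is that for replicates 1 and 2 against 3 to 6. In footprints with DMSO, Ctu1 iKO against control went from 0 to 1 with the replicate block, the set term or replicates 3 to 6. With torin 1 it went from 2 to 0 with library totals, the 2 groups alone, replicates 1 and 2 or replicates 1 to 3, and to 4 with the replicate block, the set term or replicates 3 to 6. Torin 1 in control went from 0 to 3 with the replicate block, 2 with the set term and 1 with replicates 3 to 6, and in Ctu1 iKO from 1 to 4 with the replicate block or set term, 2 with replicates 3 to 6 and 0 with replicates 1 and 2 or 1 to 3. The replicate block called Umps footprints in both (-0.24, edgeR adjusted p = 0.0347 and 0.038) and Ppat in Ctu1 iKO (-0.25, edgeR adjusted p = 0.0118). With that block the footprint interaction of Impdh2 was -0.37 ± 0.10 and did not pass (edgeR adjusted p = 0.0971). Over all genes the set term called 7.18% for Ctu1 iKO with DMSO and 18.3% for torin 1 in Ctu1 iKO. The most called in any alternative were 958 and 2099 of all genes, beside 272 and 1187 reported. Between alternatives, signs differed even where 1 passed, as for Umps and Ppat RNA with torin 1 in Ctu1 iKO, which passed below 0 with the block and lay at 0.03 and 0.02 in replicates 3 to 6, and for Prps2 RNA of Ctu1 iKO against control with torin 1, at -0.39 in replicates 1 and 2 (passed) and 0.08 in replicates 3 to 6. In RNA with DMSO, Ctu1 iKO against control went from 0 to 5 with the replicate block, 1 with the set term or all RNA replicates and 3 with replicates 3 to 6, and with torin 1 from 0 to 3 with the replicate block and 1 with the set term or replicates 1 and 2. For torin 1 in control, RNA went from 2 to 1 with the 2 groups alone or replicates 1 and 2, 5 with the replicate block, 4 with the set term and 0 with all replicates or 3 to 6, and in Ctu1 iKO from 2 to 0 with the 2 groups alone, all replicates or 3 to 6, 5 with the replicate block, 4 with the set term and 3 with DESeq2 (Ppat added), library totals (Umps and Ppat added, Impdh2 lost) or replicates 1 and 2 (Umps added). In efficiency, torin 1 in control went from 0 to 2 with the replicate block or set term, and in Ctu1 iKO from 1 to 2 with DESeq2, size factors, no filter, the replicate block, the set term, the culture block, all footprint replicates or all replicates of both assays, and to 0 with library totals or the 2 groups alone. Calls over all genes moved with the alternatives as well. For torin 1 in control and Ctu1 iKO the most called were 3105 and 3946 in RNA, beside 1138 and 1717 reported. In efficiency they were 199 and 612, beside 116 and 247 reported. Fits on fewer libraries have less power by construction, and the cause was not tested otherwise. Leaving out 1 library gave 0 to 3 for footprints of Ctu1 iKO against control with torin 1 and 1 to 1 for torin 1 in Ctu1 iKO, 0 to 1 for RNA of Ctu1 iKO against control with torin 1, 0 to 2 and 1 to 3 for RNA of torin 1 in control and Ctu1 iKO, and 0 to 2 for efficiency of torin 1 in Ctu1 iKO, and 0 in all other comparisons. Halved RNA counts and RNA of replicates 3 to 6 alone were added after the data were seen.

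Library totals in place of TMM moved the median of all footprint differences to 0.10 and 0.11 for torin 1 in control and Ctu1 iKO. The genes called higher and lower went from 165 and 107 to 222 and 73 (Ctu1 iKO, DMSO), 389 and 453 to 538 and 343 (Ctu1 iKO, torin 1), 281 and 400 to 554 and 292 (torin 1, control) and 560 and 627 to 1014 and 454 (torin 1, Ctu1 iKO). In RNA they went from 517 and 453 to 395 and 692, 497 and 641 to 393 and 805, and 836 and 881 to 557 and 1387 in the last 3 of these. In efficiency, torin 1 in Ctu1 iKO went from 34 and 213 to 149 and 169, with a median of 0.20. Calls over all genes ranged with the alternatives from 82 to 1712 for footprints of Ctu1 iKO against control with torin 1 (842 reported), 237 to 2099 for torin 1 in Ctu1 iKO (1187), 120 to 1375 for torin 1 in control (681) and 0 to 958 for Ctu1 iKO with DMSO (272). In RNA, in the order of the first list and without the fits that left out 1 library, they ranged from 428 to 2807 (604), 0 to 3453 (970), 0 to 3105 (1138) and 0 to 3946 (1717), with the highest under the replicate block. Leaving out 1 library gave 156 to 816, 297 to 1489, 595 to 1346 and 1195 to 2010 in the same order.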
